A study of Mus musculus with 6 samples.

Results

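The endothelin system was followed through 6 genes: the 3 peptide ligands Edn1, Edn2 and Edn3, the receptors Ednra and Ednrb, and Ece1, the endothelin-converting enzyme. Every probe set annotated to exactly 1 of these genes was taken, which gave 12 probe sets for 5 genes out of 45037 probe sets tested. The probe table used here lists no probe set for Ednra, so the ETA receptor was not analysed. The family was selected on the measured difference between the same arrays, in which Edn2 stood among the largest falls. The differences of the members are therefore given as a description, with their errors and with no p-value.

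Endothelins are short secreted peptides, each closed by a pair of disulphide bonds. They are made as long precursors that furin-type proteases trim to big endothelin, and the membrane metalloprotease encoded by Ece1 cuts big endothelin to the active peptide. The peptides act on G protein-coupled receptors. Ednra encodes the ETA receptor, which prefers endothelin-1 and endothelin-2, and Ednrb encodes the ETB receptor, which binds all of the endothelins. In the mouse embryo, Edn1 acts through Ednra in the pharyngeal arches, and Edn3 acts through Ednrb in neural crest cells that form melanocytes and enteric neurons. Edn2, also called vasoactive intestinal contractor, is known from the intestine and the ovary.

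The cells were mouse embryonic stem cells of the Oct4-Gip line, which carries a green fluorescent reporter and a selectable drug resistance gene under Oct4 control. One group of 3 arrays came from cells in which Panct1, a long noncoding RNA, was depleted with esiRNA, and the other group of 3 arrays from cells given a non-targeting esiRNA to Luciferase. esiRNAs are mixtures of many short interfering RNAs to 1 transcript, prepared by digesting long double-stranded RNA. In both groups the medium held fetal bovine serum and the self-renewal cytokine LIF, and 60000 cells were transfected with 800 ng of esiRNA and collected after 72 hours. All values are log2 RMA signals, as the authors deposited them. The arrays' medians lay between 6.07 and 6.09 and their lower quartiles between 4.65 and 4.70. A probe set under the lower quartile gives little signal over background, so its difference can understate a change. The probe table used here names no set for Panct1, so the depletion was not checked. The arrays measured bulk RNA, in which fewer cells of a type and less RNA per cell cannot be told apart.

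The promoter windows of Edn1 and Edn2 are shown because these ligands gave differences of opposite sign. Each window holds 250 bases before and 50 bases from the annotated gene start, from RefSeq on GRCm38.p6, 5′ to 3′ on the + strand. Edn1 lies on chromosome 13 from 42301476 to 42307990, and its window is chr13:42301226-42301525. Edn2 lies on chromosome 4 from 120161206 to 120167360, and its window is chr4:120160956-120161255. Capitals mark matches, on either strand, to 3 motifs known from studies of the EDN1 promoter: the hypoxia response core ACGTG, the GATA core AGATAA and the AP-1 core TGACTNA. The motifs were chosen after the windows had been seen.
Edn1: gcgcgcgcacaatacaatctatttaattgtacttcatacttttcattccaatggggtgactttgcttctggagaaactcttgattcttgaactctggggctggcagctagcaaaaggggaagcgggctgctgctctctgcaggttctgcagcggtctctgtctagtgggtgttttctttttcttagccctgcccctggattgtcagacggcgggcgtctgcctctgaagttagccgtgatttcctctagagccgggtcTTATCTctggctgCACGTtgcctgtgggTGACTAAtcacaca
Edn2: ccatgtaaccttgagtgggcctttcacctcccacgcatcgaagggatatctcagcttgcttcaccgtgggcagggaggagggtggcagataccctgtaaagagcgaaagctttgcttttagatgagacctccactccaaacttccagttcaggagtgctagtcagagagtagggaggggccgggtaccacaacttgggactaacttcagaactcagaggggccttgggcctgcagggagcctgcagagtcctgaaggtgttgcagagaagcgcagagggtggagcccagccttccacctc
The Edn1 window held 1 match to each motif, all after the annotated start: the GATA core from base 9, the hypoxia response core from base 22 and the AP-1 core from base 37, counted from 1 at the gene start, with no overlap between them. The Edn2 window held none of these letters. Of 32851 RefSeq promoter windows of this length, 19.6% held the hypoxia response core, 11.2% the GATA core and 13.9% the AP-1 core. A match describes the letters and is not a measured site. All 6 genes had a window in the RefSeq table, and 1 of the 4 windows of Ece1 held the hypoxia response core.

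Edn2 was about 4-fold lower after Panct1 knockdown. Its probe set 1449161_at read 5.29, 5.06 and 4.97 in the knockdown arrays, against 7.00, 7.12 and 7.32 in the Luciferase arrays. All knockdown arrays lay below all control arrays, and the gap between the groups was far wider than the spread within either. The mean log2 signal was 5.11 ± 0.17 in knockdown and 7.15 ± 0.16 in control (SD, n = 3 each). The difference, knockdown minus control, was -2.04 (SE 0.11, 95% interval -2.29 to -1.79), which is a signal 4.11-fold lower. The knockdown signal was near the 32.8th percentile of the probe sets of its arrays, and the control signal near the 64.8th percentile of its own. The Edn2 signal stayed above the lower quartile on every array, which was 4.66 to 4.68 in the knockdown arrays. Whether the knockdown signal stood clear of background was not tested. Among 18193 genes, each taken by its brightest probe set, 2 had a larger fall than Edn2, and among all probe sets 5 did.

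Edn1, the endothelin of blood vessel walls and of the pharyngeal arches, went the other way and by less. Its probe set 1451924_a_at read 6.94, 7.08 and 7.11 in knockdown arrays, against 6.58, 6.53 and 6.42 in control arrays. The groups did not overlap. The mean was 7.04 ± 0.09 in knockdown and 6.51 ± 0.08 in control (SD, n = 3 each), a difference of 0.53 (SE 0.08, 95% interval 0.36 to 0.71), or 1.45-fold higher. By size this was the 965th largest rise among the genes. Within each group of 3 arrays, the array with the higher Edn2 signal had the lower Edn1 signal at every step, but 3 arrays are too few to read an order from.

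Edn3, the ligand of neural crest cells, showed no difference past the threshold in any of its 4 probe sets, where the threshold is an adjusted p under 0.05 in limma's fit across all probe sets. The brightest of them, 1441924_x_at, read 7.38, 7.32 and 7.30 in knockdown arrays and 7.34, 7.44 and 7.04 in control arrays. The control arrays spanned the whole range of the knockdown arrays. Its difference was 0.06 (95% interval -0.18 to 0.30). The sets 1438696_at and 1441923_s_at differed by 0.06 and 0.05, and their intervals reached from -0.18 to 0.30 and from -0.16 to 0.26. The suffixes _s_at and _x_at mark sets whose probes can also match other transcripts. The set 1421136_at was under the lower quartile on all 6 arrays, with means of 3.78 in knockdown and 3.93 in control, so it says little in either direction.

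For the ETB receptor gene Ednrb, 1 of 3 probe sets was lower in knockdown. The set 1426314_at read 4.28, 4.27 and 4.31 in knockdown arrays, against 4.63, 4.59 and 4.57 in control arrays. The groups did not overlap, and the spread within each was small (SD 0.02 in knockdown and 0.03 in control, n = 3 each). The difference was -0.31 (SE 0.06, 95% interval -0.45 to -0.17). All 6 values were under the lower quartiles of their arrays, so the size of this difference is measured near background. The set 1437347_at, also under the lower quartile throughout, differed by 0.01 (95% interval -0.17 to 0.19). The set 1423594_a_at, the brightest of Ednrb, read 4.90, 4.91 and 4.78 in knockdown arrays and 4.89, 5.13 and 4.86 in control arrays. These overlapped, and the difference was -0.10 (95% interval -0.30 to 0.11).

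Ece1, which makes the active peptides, did not differ past the threshold in any of its 3 probe sets. The brightest, 1455741_a_at, read 9.26, 9.08 and 8.81 in knockdown arrays and 8.88, 9.12 and 9.20 in control arrays. The groups overlapped almost fully, and the difference was -0.02 (95% interval -0.30 to 0.27). The set 1434177_at differed by 0.07 (95% interval -0.12 to 0.27), and 1441423_at, which lay close to the lower quartile, by 0.03 (95% interval -0.15 to 0.21).

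**Figure D1:**
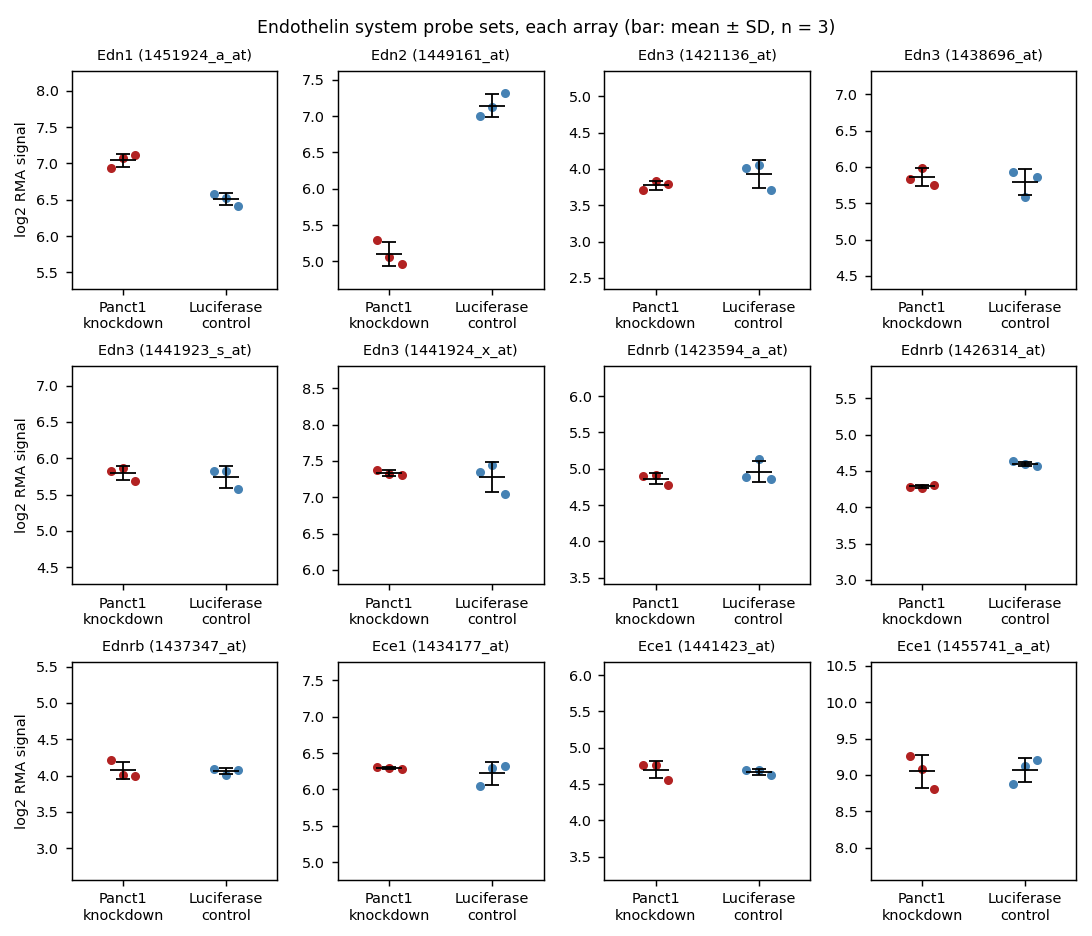
Log2 RMA signal of each of the 12 probe sets on each array (points), with the mean and SD of the 3 arrays of a group; every panel spans 3 log2 units. Edn2 is low in all 3 knockdown arrays and Edn1 is slightly high in them, while the points of Edn3, Ece1 and 2 of 3 Ednrb sets overlap.

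**Figure D2:**
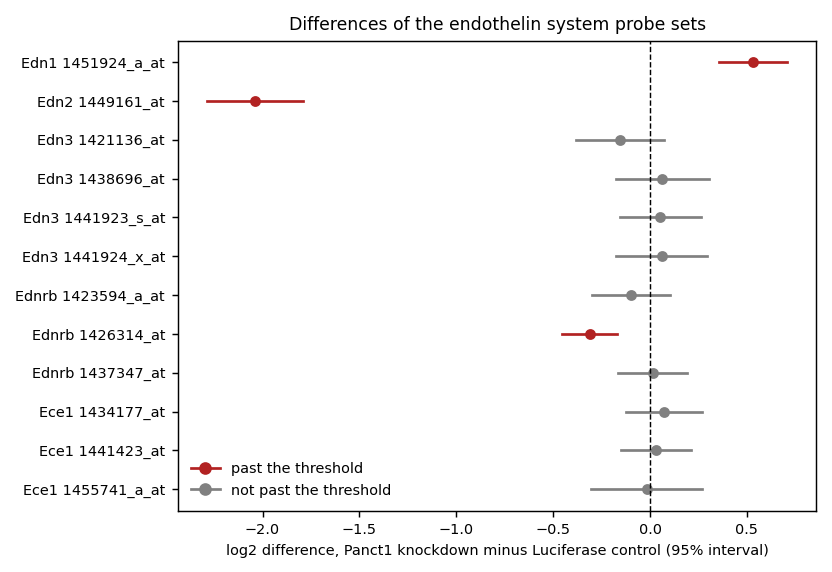
Log2 difference, Panct1 knockdown minus Luciferase control, with its 95% interval for each probe set (horizontal axis). Edn2 lies at -2.04, Edn1 at 0.53 and 1 Ednrb set at -0.31, and the intervals of the other 9 sets include 0.

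Over the family, 1 of 12 probe sets was past the threshold as higher and 2 as lower, and 9 were not past it. Over all 45037 probe sets, 7.82% were past it as higher and 6.76% as lower. The groups did not overlap for 3 of the 12 sets, against 30.4% of all probe sets. Since the family was selected on this comparison, nothing is read from these shares. The median difference was 0.02 over the 12 sets and -0.02 over all probe sets.

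**Figure D3:**
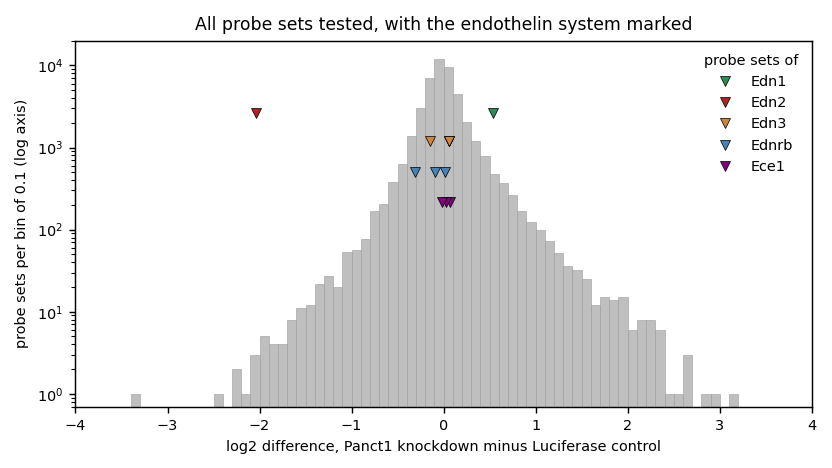
Number of probe sets in each bin of 0.1 of the log2 difference, Panct1 knockdown minus Luciferase control (grey bars, log axis), with the probe sets of each endothelin gene as triangles placed at their difference; the height of a triangle has no meaning. Edn2 lies in the far left tail, Edn1 to the right of the centre and the Ednrb set 1426314_at, at -0.31, to its left. The other sets lie within the bulk.

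The genes whose pattern was most like that of Edn2 were found by Pearson's r with its probe set over the 6 arrays, among 495 genes with an SD of at least 0.5. They were Zfp936, a zinc finger gene (r = 0.9989), Aass, a lysine-degrading enzyme (0.9984), Slc5a11, a sodium-coupled inositol transporter (0.9981), Efhd1, a mitochondrial calcium-binding protein (0.9974), and 1700042O10Rik (0.9965). Their differences ran from -1.82 for Efhd1 to -0.91 for 1700042O10Rik. The arrays form the 2 groups of the study, so such an r mostly restates the difference between them: 104 of the 495 genes had an r over 0.95 with Edn2 and 235 had one under -0.95.

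Other genes of endothelin signalling, and genes of other vasoactive peptide systems, were counted over 7 lists by role. Each gene was taken by 1 probe set, the brightest. Of 92 listed genes, 86 were measured. Past the threshold in limma's fit across all 18193 genes, 20 were higher and 7 lower in knockdown, where 12.9% of all genes were higher and 11.3% lower. With the mean of a gene's probe sets in place of the brightest, 13 were higher and 7 lower. With that mean, 2088 of all 18193 genes were higher and 2095 lower. The median difference was 0.04 over these 86 genes and -0.02 over all genes.

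Among 8 genes that process or degrade the peptides, 2 rose and 0 fell. Mme encodes neprilysin, a protease that degrades endothelins. It read 9.50, 9.55 and 9.16 in knockdown arrays, against 8.48, 8.41 and 8.59 in control arrays, so that all knockdown arrays were higher. Its difference was 0.91 (SE 0.11, limma adjusted p = 3.94e-04), although its second probe set differed by 0.27 and did not pass, and the mean of both differed by 0.59, also past the threshold. Furin, the protease that makes big endothelin, rose by 0.41 (SE 0.06, limma adjusted p = 0.00140), with 8.17, 8.26 and 8.21 in knockdown arrays against 7.84, 7.79 and 7.77 in control arrays. Ece2, a relative of Ece1, differed by -0.13 and Mmel1, a relative of neprilysin, by -0.09, and neither passed.

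Of 22 measured genes for G proteins and second messengers, 7 rose and 3 fell. Prkca, the protein kinase C alpha gene, changed the most: it read 5.97, 6.06 and 6.14 in knockdown arrays, against 7.22, 7.50 and 7.47 in control arrays. The groups were well apart, with a difference of -1.34 (SE 0.09, limma adjusted p = 1.94e-05); 2 of its 3 probe sets passed and the other differed by -0.04, so that the mean of the 3 differed by -0.74, also past the threshold. Gnai1, an inhibitory G protein subunit, rose by 0.54 in the set used, and all of its 3 probe sets passed as higher. Gnas, the stimulatory subunit of an imprinted locus with several transcripts, rose by 0.62, but 1 of its 5 probe sets passed, and their mean differed by 0.20 (limma adjusted p = 0.0443, with 6.44e-05 to 0.0443 over 14 alternatives). Gna13, a G protein alpha subunit, rose by 0.43 with 5 of 7 probe sets past the threshold. Of genes outside the naming rule, chosen after their values were seen, Gnaq, the subunit through which endothelin receptors activate phospholipase C, rose by 0.28, while Plcb4, a phospholipase C, fell by 0.49 and Itpr3, a calcium channel of the endoplasmic reticulum, fell by 0.24. One of the 5 probe sets of Gna12, which rose by 0.24, passed the opposite way at -0.32.

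Of 10 measured genes that switch receptors off, 3 rose and 0 fell. Arrb1, which encodes an arrestin, rose by 0.69 (SE 0.09, limma adjusted p = 6.65e-04). Grk3, a receptor kinase, rose by 0.47, and Rgs2, which shortens signalling through Gq, rose by 0.54. For each of these last genes 1 probe set passed, out of 3 for Grk3 and 4 for Rgs2. With the mean of a gene's probe sets, neither passed (limma adjusted p = 0.0773 for Grk3 and 0.168 for Rgs2), and Rgs2 also did not pass without Panct1 knockdown replicate 2 (difference 0.50, adjusted p = 0.0528). Over the 13 alternatives run for each, the limma adjusted p lay between 4.55e-04 and 0.0773 for Grk3 and between 0.00332 and 0.168 for Rgs2. Rgs3 differed by 0.18 and did not pass.

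Of 9 measured regulators of endothelin transcription, 4 rose and 1 fell. Jun and Fos encode the subunits of AP-1. Fos read 10.62, 9.73 and 9.62 in knockdown arrays, against 8.13, 8.45 and 8.29 in control arrays, with the first knockdown array well above the other two. The difference was 1.70 (SE 0.23, limma adjusted p = 8.63e-04), and Jun rose by 0.86 with both of its probe sets past the threshold. Vezf1, a zinc finger factor known in human endothelial cells to act on the EDN1 promoter, rose by 0.71 (SE 0.06). Klf2, a factor that lowers endothelin-1 in endothelium and is a naive pluripotency factor in stem cells, fell by 0.55 (SE 0.08). Smad3 and Hif1a lie outside the naming rule. Smad3, which was picked for its value, rose by 0.48, with 1 of its 3 probe sets past the threshold. Hif1a, which encodes the hypoxia factor, differed by -0.10 and did not pass.

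The 8 genes that act downstream of Edn1 and Ednra in the pharyngeal arches gave 0 calls in limma, and 0 of the 8 had an unadjusted p under 0.05. Over all 18193 genes, 12.9% were called higher and 11.3% lower, and 6379 had an unadjusted limma p under 0.05. The list was dim, with means of 5.59 to 5.68 in knockdown arrays and 5.60 to 5.65 in control arrays, under the arrays' medians. Gsc was under the lower quartile on all 6 arrays. These genes can therefore show little. Within the list, the smallest p-values were those of Dlx6 (difference -0.13), Dlx5 (0.12), Hand2 (-0.07) and Mef2c (0.06). A second probe set of Msx1, chosen after its values were seen, passed as higher at 0.30 in the fit across all probe sets. Of 8 measured neural crest and enteric genes that act with Ednrb, 2 rose and 1 fell. Kit, the receptor kinase of melanoblasts and germ cells, rose by 0.80 and passed in both probe sets. Gfra1, a co-receptor for GDNF, rose by 0.71 in 1 of 3 probe sets and did not pass as a mean of them (limma adjusted p = 0.113, with 1.37e-04 to 0.113 over 13 alternatives). Mitf, the regulator of melanocytes, fell by 0.55, with 1 of its 2 probe sets past the threshold, and the mean of both differed by -0.41, also past it. For Ret the brightest probe set differed by -0.09 and the other passed as higher at 0.70, so Ret has no single direction. Zeb2, picked after its values were seen, differed by 0.02 in the brightest of its 5 probe sets, while 1 other passed as lower.

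Of 21 measured genes of other vasoactive peptide systems, 2 rose and 2 fell. Ramp3 and Ramp2, receptor partners for adrenomedullin, moved in opposite directions: Ramp3 rose by 0.54 (SE 0.11, limma adjusted p = 0.00813) and Ramp2 fell by 0.51 (SE 0.09, limma adjusted p = 0.00254). Ramp1, a receptor partner for calcitonin gene-related peptide, was higher by 0.30 (limma adjusted p = 0.0483). Its call was lost without Panct1 knockdown replicate 1 (difference 0.22, adjusted p = 0.130) or replicate 3 (0.31, adjusted p = 0.0917), and without Luciferase control replicate 1 (0.29, adjusted p = 0.131) or replicate 3 (0.24, adjusted p = 0.143). It was also lost with array weights (0.24, adjusted p = 0.0565), with the mean of its probe sets (0.15, adjusted p = 0.159) and with adjustment over all probe sets (adjusted p = 0.0770). Nos3, the nitric oxide synthase of endothelium, differed by -0.29 (limma adjusted p = 0.0327). Its call was lost without any 1 array but Luciferase control replicate 3: the differences were -0.26, -0.30 and -0.31 without Panct1 knockdown replicates 1, 2 and 3 (adjusted p = 0.0883, 0.0799 and 0.0544). They were -0.25 and -0.24 without Luciferase control replicates 1 and 2 (adjusted p = 0.116 and 0.102). With adjustment over all probe sets the adjusted p of Nos3 was 0.0555. Over 13 alternatives each, the limma adjusted p lay between 0.0330 and 0.159 for Ramp1 and between 0.0104 and 0.116 for Nos3.

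**Figure D4:**
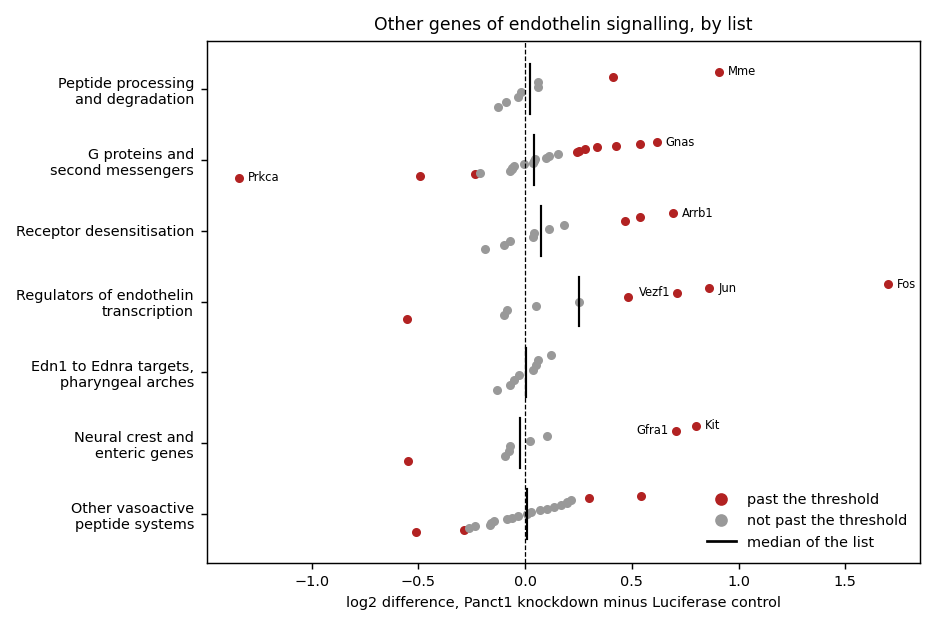
Log2 difference, Panct1 knockdown minus Luciferase control, of each measured gene (points) in the 7 lists, with the median of each list as a line. Fos at 1.70 and Prkca at -1.34 stand farthest from 0, and the pharyngeal arch genes stay within -0.13 and 0.12.

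Lists of markers were read for the stem cells and for other cell types that such cultures could hold. In limma's fit across all genes, which also gives the marker calls, 12.9% of genes were higher and 11.3% lower. Of 10 stem cell markers 0 rose and 6 fell, with list means of 12.34 in each knockdown array and 12.54 to 12.64 in control arrays, so the labelled cell type was borne out by bright markers in both groups. Of 8 trophectoderm markers 7 rose, with list means of 8.50 to 8.53 in knockdown and 7.31 to 7.41 in control. Of 7 smooth muscle markers 4 rose, with means of 7.93 to 8.08 in knockdown and 7.15 to 7.29 in control. The rises were Tagln by 2.65, Cnn1 by 1.34, Acta2 by 1.15 (1 of 3 probe sets passed) and Smtn by 0.27. Myh11 (-0.06), Des (0.13) and Lmod1 (-0.01) did not pass. Of 9 endothelial markers 1 rose, Tek by 0.66, and 3 fell, with means of 6.51 to 6.55 in knockdown and 6.50 to 6.63 in control. Of 8 fibroblast markers 2 rose (means of 5.78 to 5.80 in knockdown and 5.64 to 5.75 in control), and of 7 primitive endoderm markers 2 rose and 2 fell (6.32 to 6.45 in knockdown and 6.23 to 6.36 in control). In the fit across all probe sets, Cdh5 and Vwf of the endothelial falls did not pass. Neither did Pou5f1 and Utf1 of the stem cell falls, nor Smtn of the smooth muscle rises. In that fit, some markers not past the threshold by their brightest set had another set that passed as lower. These were Sox7 of primitive endoderm, whose second set differed by -0.48, and Pdgfra of fibroblasts, in 1 of 3 sets. Of the primitive endoderm calls, Sox17 passed as lower in 2 of 2 sets and Gata6 in 2 of 3. Amn passed as higher in its only set and Dab2 in 1 of 4. Emcn of endothelium, Lum of fibroblasts and Elf5 of trophectoderm were under the lower quartile on all arrays. The part of these marker differences in the differences of Edn1 and Edn2 was not tested.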

How the data were processed

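RNA was measured on 6 Affymetrix Mouse430 version 2 arrays, 3 per group. The deposited values are log2 signals with 2 decimals, made by the authors with GCOS 1.4 and RMA, per the submitters' processing notes. RMA shrinks small differences of dim probe sets, and which arrays were normalised together is not given in the sources used here. At most 3.21% of values were equal on any pair of arrays. The number of arrays limits the precision. The labels do not say that replicates were separate cultures, so the spread behind each p-value may be technical.

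After 64 control sets were left out, 45037 of 45101 probe sets were tested. A platform annotation table gave 34945 of them 1 symbol, 932 several and 9160 none. Of those with 1 symbol, 34741 were matched by gene ID to RefSeq, whose symbol was then used. limma 3.58.1 (statmod 1.5.0, R 4.3.3; lmFit, eBayes) compared the groups, two-sided, with Benjamini-Hochberg adjustment over all probe sets, or over 18193 genes taken by their brightest probe set. Adjusted p-values under 0.05 passed. The fit was first tested on simulated data. From each of the 7 lists, the 4 genes with the smallest p were named, and 5 genes for likeness to Edn2. The members and lists were chosen with earlier results of these data known. The alternatives tried were a replicate block, other scalings, array weights, a robust variance with an intensity trend, removal of dim features, leaving out each array, a 1.5-fold minimum, other probe set choices and adjustment over all probe sets.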

Additional observations from a re-analysis of the deposited data

How the results depend on the processing

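The replicate numbers did not pair the arrays: deviations from the group means correlated at -0.16, -0.30 and -0.15 for the same numbers. No array correlated best with its own number. The best matches were knockdown 1 with control 2 (0.26), knockdown 2 with control 3 (0.31) and knockdown 3 with control 1 (0.16). No fit used these matches, and what lies behind them was not tested. With the replicate number as a block, 4692 probe sets were past the threshold against 6565 without it, 2 of the 12 endothelin probe sets against 3, and 22 pathway genes against 27. Ramp1 (adjusted p = 0.0773) and Nos3 (adjusted p = 0.0648) did not pass with this block. The set lost was the dim Ednrb set, at a difference of -0.31 with an SE of 0.08. With a 1.5-fold minimum the counts were 2086 probe sets, 1227 of 4404 genes, 1 endothelin probe set (Edn2) and 9 pathway genes. Leaving out 1 array gave 4266 to 5574 probe sets, with the lowest count without Luciferase control replicate 1, 3133 to 3986 genes, 3 endothelin probe sets each time and 21 to 25 pathway genes. With the mean of a gene's probe sets, 20 pathway genes passed, 13 higher and 7 lower, against 20 higher and 7 lower with the brightest. Over all genes, 2088 were higher and 2095 lower with the mean, against 2355 and 2049 with the brightest. The differences of Edn2 ran from -2.13 to -1.95 and those of Edn1 from 0.49 to 0.59 over the 12 alternatives run for them, several of which leave a difference as it is by construction; since the family was selected on this comparison, these ranges are a description. Of the 9 sets not past the threshold, 7 changed sign in some setting. Leaving out the dimmer probe sets removed 7 of the 12. Of 28 named pathway genes 22 kept their call in all their settings. The other 6 were Gfra1, Grk3, Nos3, Ramp1, Rgs2 and Rgs3, of which Rgs3 passed with the dimmer genes left out (adjusted p = 0.0421) and with array weights (adjusted p = 0.0473), with a range of 0.0421 to 0.328. The cause of these changes was not tested. Dim signals limit what Ednrb and 1 Edn3 set can show.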
